A study of Mus musculus with 10 samples.

Results

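The miR-297, miR-466, miR-467 and miR-669 hairpins form a family of microRNA (miRNA) precursors that is known from rodents. They were chosen by name from the small RNA libraries, as every miRBase hairpin whose name starts with mmu-mir-297, mmu-mir-466, mmu-mir-467 or mmu-mir-669 followed by a letter, a hyphen or the end of the name, and 82 of the 1136 miRNA hairpins met this rule. There were 6 hairpins of miR-297, 29 of miR-466, 17 of miR-467 and 30 of miR-669. Small RNA had been sequenced from mature sperm of the epididymal tail and vas deferens of male C57BL/6J mice, the founder generation (F0). The HFD-F0 group had 5 samples from mice on a high-fat diet with 42% of kcal as fat, and the CD-F0 group had 5 samples from mice on a control diet with 10% of kcal as fat. In both groups the diet began at 4 weeks of age and lasted 10 weeks, and no allele or other agent is named for either group. The labels do not say whether a sample was 1 mouse or a pool, so the p-values measure the spread between these samples, which may be technical.

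A miRNA is cut from a hairpin transcript, and bases 2 to 8 of the mature strand, the seed, guide it to messenger RNAs, which it represses. In the mouse most hairpins of this family lie as a tandem array in an intron of Sfmbt2, a gene for a Polycomb group protein that is expressed from the paternal allele in the placenta and early embryo. Many copies have the same or nearly the same sequence, and the mature strands carry runs of alternating purines and pyrimidines such as UGUGUG and CACACA. A short read from such a sequence can fit several hairpins equally well.

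The RefSeq miRNA table for GRCm38.p6, the build that the submitters' processing notes name as mm10, held a mature strand for 8 of the 82 hairpins. The first below belongs to the most abundant hairpin and the second to the only one with an unadjusted p of 0.05 or less between the diets. The others are the rest of these 8. Each is written 5′ to 3′ with the seed in capitals.

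mmu-miR-467h: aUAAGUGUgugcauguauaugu
mmu-miR-467f: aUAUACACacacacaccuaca
mmu-miR-467g: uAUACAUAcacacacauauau
mmu-miR-466i-3p: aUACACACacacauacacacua
mmu-miR-466q: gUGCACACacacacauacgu
mmu-miR-466j: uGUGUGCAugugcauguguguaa
mmu-miR-466k: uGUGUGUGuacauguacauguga
mmu-miR-669n: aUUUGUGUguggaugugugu

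These strands fell into a UGUGUG kind and a CACACA kind. UGUGUG was found in 4 of the 8 (miR-467h, miR-466j, miR-466k and miR-669n) and CACACA in the other 4, against 1.67% and 0.715% of the 1679 mature strands in the table, searched on the strand as written. ACAUAC was found in 3 strands (0.417% of all) and AUACAC in 3 (0.834% of all), and both overlap with CACACA where they meet it. The longest run of alternating purines and pyrimidines was 8 to 22 bases, with a median of 20, while the median over all mature strands was 4 and 3.39% reached 8. The 8 seeds were all different, although miR-466i-3p shared a run of 14 bases with miR-466q and one of 13 with miR-467f.

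All 8 of these hairpins lie outside Sfmbt2, so the mature strands of the hairpins inside it were not examined. By RefSeq, mmu-mir-467h lies on chromosome 9 from 115381819 to 115381939, with its mature strand at chr9:115381898-115381919 on the plus strand. The hairpin of mmu-mir-467f lies on chromosome 11 from 69635400 to 69635519, with the mature strand at chr11:69635419-69635439 on the minus strand. RefSeq gave a position for 81 of the 82 hairpins, of which 71 lay within Sfmbt2 and 10 elsewhere. The position of mmu-mir-466a was not matched by name.

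The array in Sfmbt2 began at position 10466663 of chromosome 2 and ended at 10518279, a stretch of 51.6 kb. In GENCODE the gene runs from 10370510 to 10595253, and the whole array fell within the intron from 10461473 to 10523944, which is intron 10 of one annotated transcript and intron 11 of another. No exon of either transcript lies within the array. It held 5 hairpins of miR-297, 23 of miR-466, 14 of miR-467 and 29 of miR-669, with a median of 296.5 bp from the start of one to the start of the next. A unit recurs in it, since each of the 10 copies of mir-467a was followed by a miR-466 and then a miR-669 hairpin, the last of which began 507 to 518 bp after the mir-467a. The copies of mir-467a started 2413 to 4880 bp apart, with a median of 2462 bp. Levels below are in RPM, the reads of a hairpin for each 1000000 clean reads of the library.

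**Figure D1:**
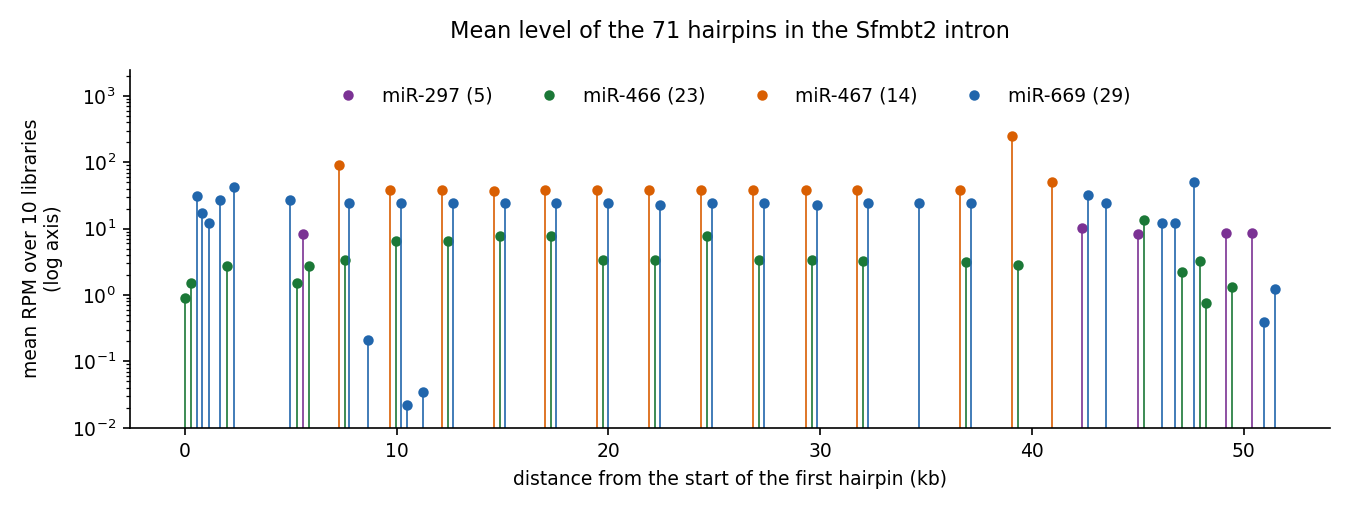
Each of the 71 hairpins in the Sfmbt2 intron is drawn at its distance in kb from the start of the first hairpin, with its mean RPM over the 10 libraries on a log axis and the sub-family in colour. The 10 copies of mir-467a stand at 38.2 RPM each in the middle of the array, and the tallest line near 39.1 kb is mir-467e at 251 RPM.

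The CD-F0 libraries held 30431401 to 31586854 clean reads and the HFD-F0 libraries 29558751 to 32178088. Of these, 64.9% to 75.2% and 73.3% to 74.7%, respectively, matched the genome, with CD-F0 replicate 1 lowest. miRNAs took 15.4% to 18.2% and 14.5% to 23.5% of clean reads. The miRNA markers that were used to check the label of the cells were all measured. The 5 spermatogenic hairpins (mir-34b, mir-34c, mir-449a, mir-449b and mir-449c) summed to 10478 to 12648 RPM in CD-F0 libraries and 7275 to 15064 RPM in HFD-F0 libraries. Markers of other cells were present as well. The 6 epithelial hairpins (the mir-200 group and mir-205) summed to 3969 to 6756 and 5520 to 9463 RPM, the 6 muscle hairpins to 21352 to 29447 and 15876 to 36525 RPM, and the 7 blood and immune hairpins to 3689 to 5506 and 3219 to 6056 RPM. The epithelial sum was 1.25 times as high in HFD-F0 libraries, with 6 of 6 hairpins higher in mean. The muscle sum was 1.12 times as high (4 of 6 hairpins higher). The blood and immune sum was 1.06 times as high (6 of 7 higher). The spermatogenic sum went the other way, at 0.8998 times the CD-F0 level, although 3 of 5 hairpins were higher in mean. The part of these 4 sums in the levels below was not tested.

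The family was present in the sperm libraries, which also held markers of other cells, at a level near 1 in every 100 miRNA reads. Its summed reads were 1353, 1994, 2096, 1793 and 1667 RPM in CD-F0 replicates 1 to 5 and 2517, 1698, 2349, 1438 and 1824 RPM in HFD-F0 replicates 1 to 5. HFD-F0 replicates 1 and 3 were above every control library and CD-F0 replicate 1 was below every other library, and the other 7 lay between 1438 and 2096 RPM. CD-F0 libraries averaged 1781 ± 292 RPM and HFD-F0 libraries 1965 ± 452.97 RPM (SD, n = 5 each), a ratio of 1.10 (p = 0.444, exact permutation test over all splits into 5 and 5, two-sided). The smallest p that this test can give is 0.00794. The exact permutation test was also run on log2 RPM, where the ratio is one of geometric means. It did not refuse ratios from 0.807 to 1.47 at the 95% level. A difference of this size in either direction was thus within the spread between samples. Counting error was small beside this spread, since the 95% Wilson interval of each library's sum was 0.690% to 0.965% of it on either side. These intervals cover counting error only. In bulk samples a change in the share of the cells that hold a miRNA and a change of its amount per cell cannot be told apart.

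**Figure D2:**
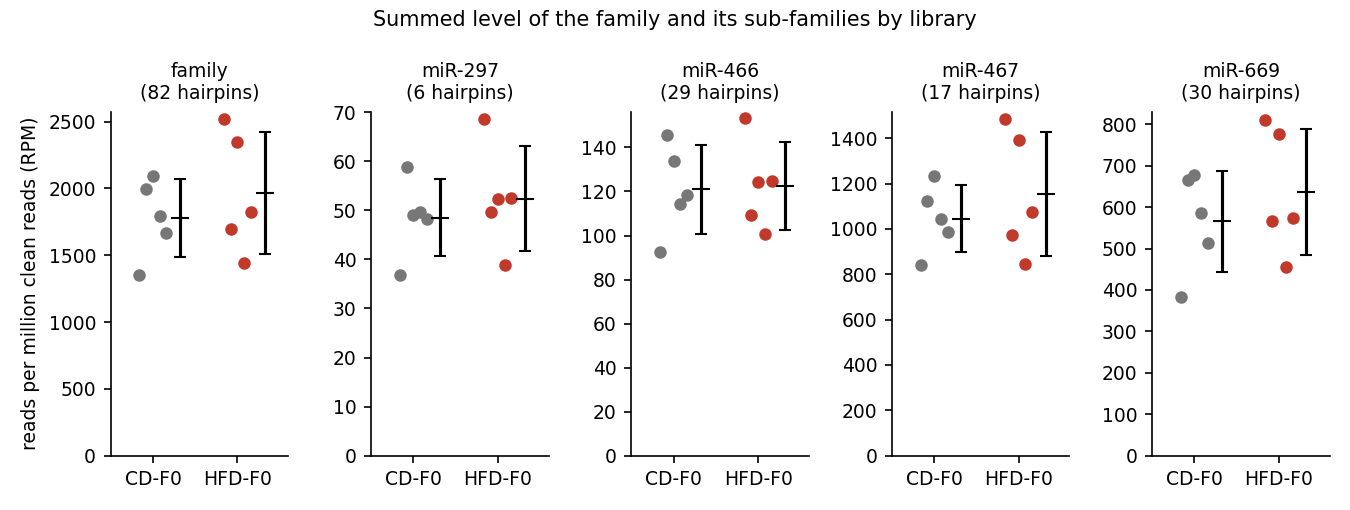
Dots show the summed RPM (y axis, from 0) of the whole family and of each sub-family in the 5 CD-F0 and the 5 HFD-F0 libraries, and bars show the mean ± SD. The groups overlap in all 5 panels, with family means of 1781 and 1965 RPM.

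As a share of all miRNA reads the groups were closer still. The family took 0.789%, 1.18%, 1.15%, 1.17% and 0.986% of miRNA reads in CD-F0 replicates 1 to 5, and 1.07%, 0.893%, 1.30%, 0.791% and 1.26% in HFD-F0 replicates 1 to 5. The mean shares of 1.05% ± 0.168 and 1.06% ± 0.221 (SD, n = 5 each) gave an exact permutation p of 0.929, two-sided. The library with the highest family sum in RPM, HFD-F0 replicate 1, was thus in the middle of the libraries on this scale. All member reads matched the genome: none of the 588231 reads of the family was listed as unmatched in any library, and 2 other hairpins held all of the 52 to 106 unmatched miRNA reads per library.

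The sub-families differed widely in level. miR-467 gave 58.9% ± 2.13 of the family reads in CD-F0 and 58.7% ± 0.799 in HFD-F0 libraries (SD, n = 5 each), from 17 hairpins. miR-669 followed with 31.5% ± 2.06 and 32.3% ± 0.873, miR-466 with 6.81% ± 0.422 and 6.33% ± 0.676, and miR-297 with 2.74% ± 0.241 and 2.69% ± 0.276 (SD, n = 5 each). The order was the same in all 10 libraries.

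None of the 4 sums differed between the diets by more than the spread between samples. For miR-467 the CD-F0 libraries had 842 to 1234 RPM with a median of 1042 and the HFD-F0 libraries 844 to 1486 RPM with a median of 1074, a ratio of the means of 1.10. miR-669 had 382.3 to 678.7 RPM against 454 to 809 RPM and a ratio of 1.12. miR-466, with 92.6 to 145.9 RPM against 100.5 to 153 RPM, had a ratio of 1.01, and miR-297, with 36.9 to 58.9 RPM against 38.9 to 68.6 RPM, one of 1.08. The exact permutation p was 0.444, 0.444, 0.929 and 0.548 in this order, and 0.730, 0.730, 0.929 and 0.730 after Benjamini-Hochberg adjustment over the 4 sums. On log2 RPM the exact test did not refuse ratios of geometric means of 0.812 to 1.47 for miR-467 and 0.807 to 1.57 for miR-669 at the 95% level. For miR-466 the range was 0.801 to 1.34 and for miR-297 it was 0.824 to 1.41. The miR-466 ratio fell to 0.969 when reads were divided by the genome-matched clean reads and to 0.929 per miRNA read, and the miR-297 ratio to 0.984 per miRNA read, so these directions were not settled.

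Single hairpins ranged from 285 RPM to the limit of detection. There were 42 with a mean of 10 RPM or more, 31 between 1 and 10 RPM and 9 below 1 RPM. The 2 most abundant held 28.6% of the family reads and the top 10 held 49.3%. At the other end mmu-mir-669g was listed in 5 libraries, with at most 0.110 RPM, against a limit of 0.0932 to 0.101 RPM that a count of 3 reads gives in these libraries. The other 81 hairpins were listed above 0 in all 10 libraries, and 77 hairpins had 3 reads or more in each of them. Below that limit were mir-669g in 9 libraries, mir-669j in 10, mir-669n in 3, mir-669i in 2 and mir-669k in 1.

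The highest hairpin was mmu-mir-467h, at rank 91 of the 1136 hairpins, with 166, 278, 346, 278 and 248 RPM in CD-F0 replicates 1 to 5 and 366, 253, 404, 230 and 281 RPM in HFD-F0 replicates 1 to 5. The next, mmu-mir-467e of the Sfmbt2 array, had 129, 245, 304, 250 and 222.8 RPM and 324, 220, 365, 200 and 250 RPM in the same order. The groups overlapped for both, and CD-F0 replicate 1 was the lowest library for each. The log2 fold change of HFD-F0 over CD-F0 was 0.12 (SE 0.19) for mir-467h and 0.14 (SE 0.21) for mir-467e, with edgeR adjusted p of 0.912 and 0.908 (quasi-likelihood test, Benjamini-Hochberg over all features). Without HFD-F0 replicate 3 they were 0.0017 and 0.013, and without CD-F0 replicate 1 they were 0.014 and 0.011. Although one lies on chromosome 9 and the other on chromosome 2, these hairpins kept close proportions across libraries. The ratio of their reads was 1.11 to 1.15 in 9 libraries and 1.29 in CD-F0 replicate 1. The authors' alignment allowed 1 mismatch, so a read that differs from a hairpin by 1 base could still be counted for it. How many of these reads fit both hairpins is not given, and the part of shared reads in the ratio was not tested.

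Of the other abundant hairpins, mmu-mir-467c (10473931 to 10474027 of chromosome 2) had 85.8 ± 14.9 RPM in CD-F0 libraries and 95.4 ± 15.9 RPM in HFD-F0 libraries (SD, n = 5 each). mmu-mir-467d had 48.6 ± 8.39 and 53.4 ± 13.7 RPM, mmu-mir-669o 47.0 ± 10.2 and 54.4 ± 11.5 RPM, and mmu-mir-669l 39.8 ± 7.48 and 44.6 ± 7.84 RPM. These levels are per hairpin, with reads of both arms in 1 value, and neighbours in the order from mir-467d to mir-669l lay within each other's spread. Their log2 fold changes were 0.05 (SE 0.16), 0.03 (SE 0.17), 0.11 (SE 0.18) and 0.07 (SE 0.17), with edgeR adjusted p of 0.914 to 0.991. The top hairpins of the smaller sub-families over all 10 libraries were mmu-mir-466d, with 13.2 ± 2.74 and 14.0 ± 4.06 RPM, and mmu-mir-297c, with 9.83 ± 1.73 and 10.7 ± 2.46 RPM. In CD-F0 libraries alone mir-466q was higher than mir-466d, at 14.2 ± 3.81 RPM, and HFD-F0 replicate 1 held the highest mir-466d value, 21.1 RPM. Both mir-466d and mir-297c lie in the array, and their log2 fold changes were -0.03 (SE 0.19) and 0.03 (SE 0.18) with edgeR adjusted p of 0.991 each.

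The copies of mir-467a showed how reads were divided among like hairpins. All 10 had exactly the same value in each library. Each copy had 39.2, 41.5, 37.4, 34.9 and 36.1 RPM in CD-F0 replicates 1 to 5 and 54.9, 33.5, 42.2, 26.9 and 35.4 RPM in HFD-F0 replicates 1 to 5, so that the HFD-F0 libraries reached both above and below the control range. Summed over the copies the level was 378 ± 26.2 RPM and 386 ± 106 RPM (SD, n = 5 each), and the log2 fold change per copy was -0.09 (SE 0.17), with an edgeR adjusted p of 0.914. It turned to 0.03 when the clean reads were used as library size without TMM. As a set they held more reads than mir-467h, at 20.4% of the family, and they are one measurement and not 10.

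The family had 6 such sets of identical values. They took in 30 hairpins and 36.8% of the family reads, so that the 82 hairpins gave 58 distinct profiles. Besides mir-467a the largest set was 9 copies of mir-669a, with 202 ± 52.3 RPM in CD-F0 libraries and 233 ± 65.4 RPM in HFD-F0 libraries in sum (SD, n = 5 each), or 11.6% of the family. The others were 5 copies of mir-466b, 2 of mir-466c, 2 of mir-669p, and mir-466b-8 with mir-466e.

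Nearly all values of the family were counts with a decimal part, which arise where a read that fits several hairpins is divided between them. A single divided read is enough to make a count of any size not whole. Of the 815 values above 0, 802 (98.4%) differed from a whole number by more than 0.005, and the share was 97.5% or more in each library. miR-467 had no whole value among 170, and 73 of the 82 hairpins never had one in any library. Of the other 1054 miRNA hairpins 25.4% of values were not whole, and 736 of them were always whole. The let-7 family, which also has near-identical copies, had 99.3%, the X-linked miR-506 family 40.0% and the imprinted Dlk1-Dio3 cluster 5.96%. With a tolerance of 0.05 the shares were 88.3% for the family and 24.9% for the other hairpins, 19 of the 82 hairpins never had a whole value, and miR-467 had 88.8% (29.4% in its lowest library). In that library, CD-F0 replicate 1, the 10 copies of mir-467a held the same value, 1193.99 reads, which this tolerance counts as whole. Copies with identical values enter all these shares one by one and are not separate measurements.

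**Figure D3:**
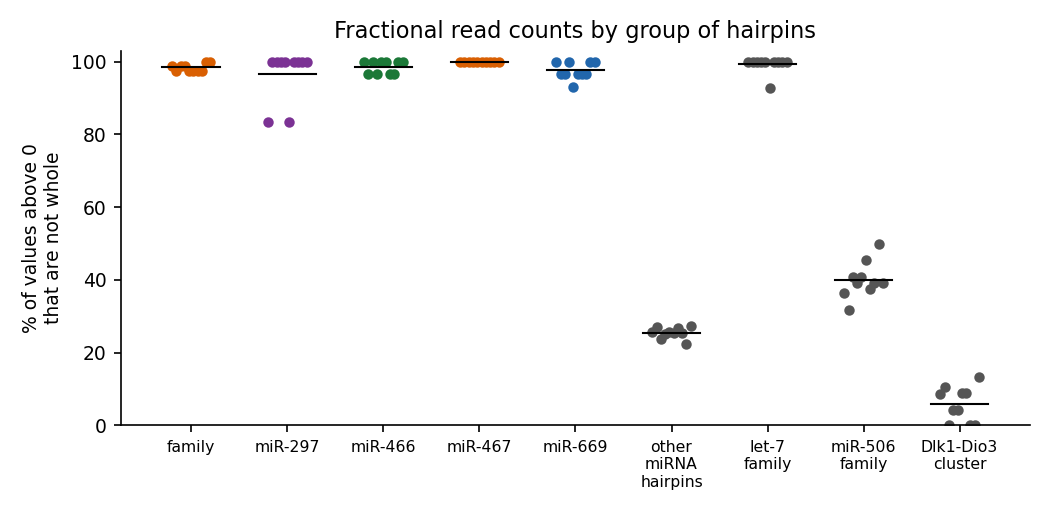
Each dot is 1 library and shows the percent (y axis) of the values above 0 that differed from a whole number by more than 0.005, for the family, its sub-families, all other miRNA hairpins and 3 groups for comparison, with lines at the mean over libraries. The family stands at 98.4%, the other hairpins at 25.4% and the Dlk1-Dio3 cluster at 5.96%.

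Summing the hairpins of a sub-family would return whole reads if each divided read stayed within it and only the final values were rounded. The miR-297 sum was off a whole number by more than the rounding of its 6 values allows (0.03 reads) in 10 of 10 libraries. The sums of miR-466, miR-467 and miR-669 were off in 7, 8 and 7 libraries. This bound takes each value as rounded only once. For the whole family the rounding of 82 values allows 0.41 reads, which makes the check coarse. The family sum was off by more than this in 2 libraries, by at most 0.47 reads. Whether the shares of single reads were rounded before they were added up is not given. The check therefore cannot show whether divided reads were assigned outside a sub-family or outside the family.

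The makeup of the family was close to constant over the libraries, with 1 exception in degree. In CD-F0 replicate 1 the copies of mir-467a took 29.0% of the family reads, against 17.8% to 21.8% in the other 9 libraries, and mir-467h and mir-467e took 12.3% and 9.56%, their lowest shares. The same library had the lowest level within its group for 58 of the 82 hairpins. In the HFD-F0 group, replicate 4 was lowest for 55 hairpins and replicate 1 highest for 51. These counts include every copy in the sets of identical values, which are not separate measurements. The share of clean reads that matched the genome was 64.9% in CD-F0 replicate 1, 73.6% in HFD-F0 replicate 4 and 74.7% in HFD-F0 replicate 1, and its part in these levels was not tested.

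**Figure D4:**
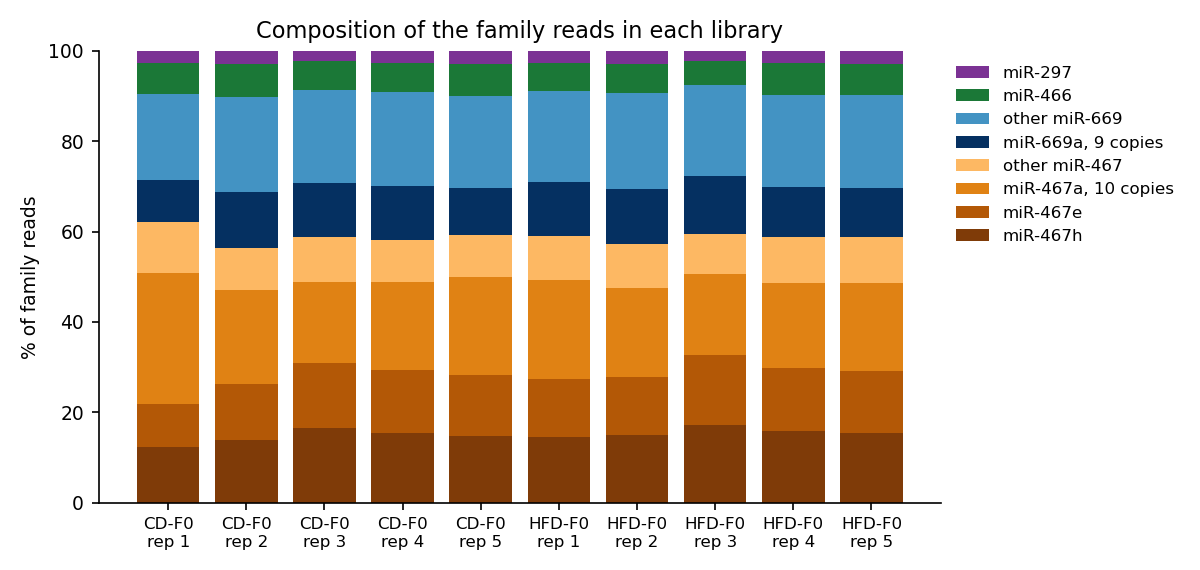
Stacked bars show the percent of family reads (y axis) held by mir-467h, mir-467e, the 10 copies of mir-467a, other miR-467, the 9 copies of mir-669a, other miR-669, miR-466 and miR-297 in each of the 10 libraries. The bars are alike except for CD-F0 replicate 1, where the mir-467a copies take 29.0%.

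Whether single hairpins differed between the diets was tested in 1 fit over all small RNA features. Of the 82 hairpins 77 passed the filter on low counts, and mir-467g, mir-669k, mir-669n, mir-669j and mir-669g did not. With the thresholds of the study (p at most 0.05 and |log2 fold change| at least 1 in edgeR), 0 of the 77 were called, against 3.69% of all 814 features. At an adjusted p under 0.05 there were also 0, against 0.123% of all features (1 of 814), and at an unadjusted p of 0.05 or less there was 1, against 10.2%. DESeq2 gave the same counts of 0, 0 and 1. No hairpin of the family had groups that did not overlap in RPM, against 1.67% of all miRNA hairpins. The median log2 fold change of the 77 was 0.02, from -0.61 to 0.69, and that of all features was -0.01. Of the 77, 46 lay above 0 and 31 below, and with each set of identical values counted once 31 of 53 profiles lay above 0 and 22 below. In mean RPM, which is not scaled by TMM, 67 of the 82 hairpins (43 of 58 profiles) were higher in HFD-F0 libraries and 15 lower, so the balance of directions depended on the scale. The 452 other miRNA hairpins tested had a median of -0.08, the let-7 family (14 tested) 0.26, the miR-506 family (22 tested) -0.08 and the Dlk1-Dio3 cluster (38 tested) -0.26. Scaled to clean reads without TMM, the median moved to 0.12 for the family and to 0.09 for all features.

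**Figure D5:**
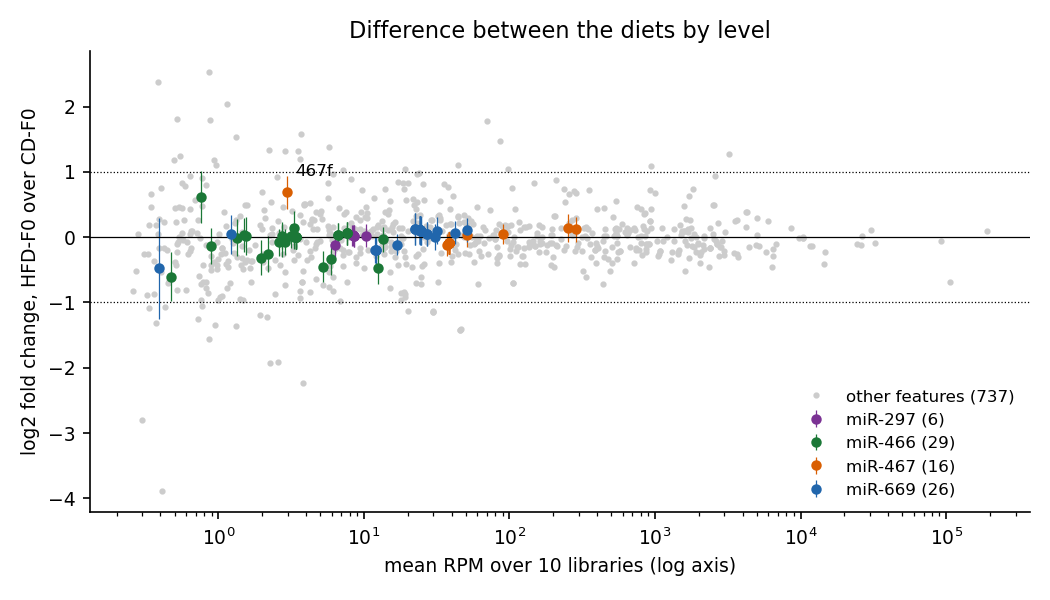
The log2 fold change of HFD-F0 over CD-F0 (y axis) is plotted against the mean RPM over the 10 libraries (x axis, log scale) for the 77 hairpins of the family, in colour with bars of 1 SE, and for the 737 other features in grey. No hairpin of the family passes the dotted lines at -1 and 1, and the labelled mir-467f stands highest at 0.69.

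The hairpin with the smallest p was mmu-mir-467f, one of those outside Sfmbt2, whose mature strand is printed above. It had 1.25, 3.19, 2.71, 1.83 and 1.89 RPM in CD-F0 replicates 1 to 5 and 3.83, 3.30, 4.20, 2.77 and 4.44 RPM in HFD-F0 replicates 1 to 5. Of the HFD-F0 libraries 4 lay above every control library, and replicate 4 lay below CD-F0 replicate 2. The log2 fold change was 0.69 (SE 0.26), with an adjusted p of 0.351 in edgeR's quasi-likelihood test, which does not pass. Its unadjusted p of 0.0198 in edgeR rose to 0.0526 without HFD-F0 replicate 5. The fold change rests on 92.3 reads per library on average. This is an estimated count that was not whole in any of the 10 libraries, and the part of divided reads in it was not tested.

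Some hairpins named here were chosen after their values were seen. mmu-mir-466q on chromosome 3, whose strand is also printed above, had 10.2, 15.8, 20.0, 12.6 and 12.5 RPM in CD-F0 replicates 1 to 5 and 11.2, 14.1, 10.2, 6.40 and 12.3 RPM in HFD-F0 replicates 1 to 5. Its log2 fold change was -0.47 (SE 0.24), with an edgeR adjusted p of 0.498. Its unadjusted edgeR p of 0.0716 was 0.0499 without CD-F0 replicate 1 and 0.0280 without HFD-F0 replicate 2. The log2 fold change of mir-466k, also on chromosome 3, was -0.45 (SE 0.24), with an edgeR adjusted p of 0.514. The low and variable mir-466h, with 0.273 to 1.15 RPM in CD-F0 libraries and 0.563 to 1.21 RPM in HFD-F0 libraries, had a log2 fold change of 0.61 (SE 0.40) and an edgeR adjusted p of 0.629. Without CD-F0 replicate 4 its log2 fold change was 1.05 with an unadjusted edgeR p of 0.0141, so that it alone then passed the thresholds of the study, with an edgeR adjusted p of 0.466.

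Hairpins inside and outside the Sfmbt2 array were also summed apart, a split made after the data were seen. The counts include shares of reads that fit several hairpins, and mir-467h had no whole value in any of the 10 libraries. These sums are thus of reads as assigned and do not show from which place they were transcribed. The 71 hairpins of the array gave 80.9% to 85.5% of the family reads, with 1477 ± 221 RPM in CD-F0 libraries and 1622 ± 377.3 RPM in HFD-F0 libraries (SD, n = 5 each), a ratio of 1.10 (p = 0.468, exact permutation test, two-sided). The 10 hairpins elsewhere had 301 ± 73.9 and 340 ± 79.0 RPM, a ratio of 1.13 (p = 0.437, same exact permutation test), and most of that came from mir-467h. The 9 that remained without it summed to 38.1 ± 9.67 RPM in CD-F0 libraries and 33.7 ± 6.96 RPM in HFD-F0 libraries, a ratio of 0.884 (p = 0.429, same exact permutation test). In the fit over all features the median log2 fold change was 0.02 for the 68 hairpins of the array that were tested and -0.33 for the 8 tested elsewhere, beside -0.01 for all features, and 0 hairpins of either place passed the thresholds of the study.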

How the data were processed

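Small RNA of 10 sperm samples was analysed. RNA in the gel range of 18–30 nt was ligated to adapters with unique molecular identifiers, and whether identical ones were collapsed is not given in the sources used here. With SPORTS and Bowtie the authors aligned clean reads to the mouse genome (mm10 per the submitters' processing notes) and to RNA sets. A single mismatch was allowed. They deposited reads per sub-class as estimated counts without normalization, with decimals. These were summed over genome-matched and unmatched reads, taken as 0 where not listed, and divided by clean reads (RPM). Group sums were compared with exact permutation tests in Python 3.11.15 and scipy 1.17.1. All 1470 features, rounded to whole numbers, entered edgeR 4.0.16 in R 4.3.3 (filterByExpr, TMM, quasi-likelihood test, Benjamini-Hochberg over the 814 kept), with DESeq2 1.42.0 as an alternative. The fit was tested on simulated counts. The 45 pairs of libraries all differed by more than sampling noise.

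Hairpins named were the 12 most abundant, the top one of each sub-family and those with an unadjusted p of 0.05 or less. A few others were named after their values were seen, as stated there. The blood list's mir-142 was read as mir-142a, its name in the files. The members, lists and tests were chosen with earlier results of these data known. Alternatives were other denominators, tools, filters and left-out libraries.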

Additional observations from a re-analysis of the deposited data

Results flagged for a closer look

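Each group of 5 values behind the family sums, the shares and the named hairpins was searched for a library far from the rest, 48 groups in all, and 1 was found where chance gives about 1 in 20 groups. HFD-F0 replicate 1 had 21.1 RPM of mmu-mir-466d, while the next highest library of its group had 13.2 RPM, and this gap was 0.809 of the range of the group, above the critical value of 0.71 for 5 values (Dixon's test at 95%). Without this library the log2 fold change of mir-466d in edgeR went from -0.03 to -0.18.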

How the results depend on the processing

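No alternative brought a family or sub-family sum past a p of 0.05. With each library left out in turn, the ratio of HFD-F0 over CD-F0 was 1.03 to 1.18 for the family sum, 0.996 to 1.15 for miR-297, 0.948 to 1.07 for miR-466, 1.02 to 1.18 for miR-467, 1.04 to 1.20 for miR-669 and 0.948 to 1.07 for the family share of miRNA reads. Per miRNA read the ratio was 0.984 for miR-297 and 0.929 for miR-466, and per genome-matched clean read it was 0.969 for miR-466. Hairpins called with the thresholds of the study numbered 0 to 1 with 1 library left out (1 without CD-F0 replicate 4) and 0 under each other alternative, including 1 feature for each set of identical values (chosen after seeing the data), and at an adjusted p under 0.05 there were 0 under each one. The cause of these shifts was not tested. Non-whole values fell to 88.3% with a tolerance of 0.05, which by construction counts more values as whole.

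With 1 library left out, the edgeR log2 fold change ranged from 0.0017 to 0.22 for mmu-mir-467h, 0.011 to 0.24 for mmu-mir-467e, 0.018 to 0.19 for mmu-mir-669o, -0.00011 to 0.14 for mmu-mir-467c, -0.092 to 0.11 for mmu-mir-467d, -0.010 to 0.14 for mmu-mir-669l, -0.21 to 0.0018 for mmu-mir-467a-1 (and each other copy), -0.070 to 0.11 for mmu-mir-297c and -0.18 to 0.032 for mmu-mir-466d. It was 0.029 for mmu-mir-467a-1 and 0.086 for mmu-mir-466d with clean reads as library size, and 0.023 for mmu-mir-466d with miRNA hairpins only. For mmu-mir-467f it was 0.56 to 0.81.

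Same-numbered samples of the groups were treated as unpaired, since the labels number the replicates but name no pairs. Their deviations correlated at 0.336, -0.0876, 0.246, -0.191 and -0.137, and 2 of 5 correlated best with their own number. So few correlations cannot show whether such samples were handled together. With the replicate block (exact sign-flip test of 5 pairs, smallest possible p 0.0625) the p was 0.688 for the family sum ratio of 1.10 and 0.625 to 0.938 for the sub-families, and edgeR with the block called 0 hairpins by either rule. As all member reads matched the genome, the planned comparisons of unmatched reads gave no value. Depth limits hairpins near the level of 3 reads, such as mir-669g.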
